A study of Homo sapiens with 6 samples.

Results

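Close alternative 3′ splice sites are pairs of introns that leave from the same 5′ splice site and end at 3′ splice sites lying 1 to 100 nt apart. They were taken from intron tables of K562 cells, a human leukaemia line with erythroid features, in which ZRSR2 had been knocked down. A pair entered when its shorter intron had at least 50 spliced reads on average over the 6 libraries. Of 110 such pairs listed, 69 entered and 41 had fewer reads. The 69 pairs lay in 63 genes on 21 chromosomes, used 66 different 5′ splice sites and drew on 134 of the 241593 listed introns. They are a small part of the 40966 pairs of listed introns that share a splice site. NDUFS7 and GLOD4 each gave more than 1 pair from the same 5′ splice site, so the pairs of these genes share reads.

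The groups were cells transduced with the shRNA sh1 against ZRSR2, cells transduced with the shRNA sh2 against ZRSR2, and cells transduced with a control shRNA, Con_sh, with 2 libraries in each. All are K562 cells and none is untransduced. Spliced counts summed over all listed introns came to between 82986327 and 101120454 per library. Reads of a longer intron are counted again in a shorter listed intron sharing a splice site, so these sums are not numbers of reads. Introns with many reads are measured much more precisely than those near the minimum of 50. ZRSR2 itself had 9.94 and 9.82 spliced-read CPM (its reads scaled to the library's spliced reads) in sh1 cells and 9.50 and 11.4 in sh2 cells, against 25.7 and 21.5 in Con_sh cells, summed over 10 of its introns. ZRSR2 RNA was therefore lower in every knockdown library and was not absent. Of 26 erythroid marker genes measured, 25 had at least 1 CPM in all libraries, and their sum ran from 8894 to 30369 CPM in knockdown cells, against 7089 to 9934 in Con_sh cells. Of 14 marker genes of other cell types, 7 had at least 1 CPM in all libraries, 4 were under 1 CPM in all and 0 were at zero throughout. The highest was the keratin gene KRT8, at 208 to 641 CPM. The sum of the 14 ran from 333 to 619 in knockdown cells, against 483 to 847 in Con_sh cells. No close pair lies in a gene of either marker list, and the part of these shifts in the results below was not tested.

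At the 3′ end of a major-class intron, the U2AF proteins recognise a run of pyrimidines and the AG dinucleotide that ends the intron. ZRSR2 is a relative of the smaller U2AF protein and takes part in recognising the 3′ splice site of the rare U12-type introns. Where usable AGs lie close together, the choice between them adds or removes a few codons or shifts the reading frame, and tandem acceptors 3 nt apart are a widely described form. The pairs here allow the question of whether lower ZRSR2 goes with another choice between neighbouring 3′ ends. In what follows, the inner site is the 3′ splice site nearer to the 5′ splice site, giving the shorter intron and the longer exon, and the outer site is the farther of the pair. A spliced read that reaches the outer site also spans the shorter intron, so the inner site's own reads are those of the shorter intron minus those of the longer. The inner share is the percentage of the pair's spliced reads that used the inner site.

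The distances fell into separate groups. At 1 nt there were 21 pairs and at 2 nt 18 pairs, none lay at 3 to 6 nt, 5 lay at 7 to 10 nt, 6 at 20 to 38 nt and 19 at 44 to 99 nt. Between these ranges lay listed pairs with too few reads, 2 at 3 to 6 nt, 1 at 11 to 19 nt and 1 at 39 to 43 nt. The single listed pair at 3 nt, in THSD7B, had 0 spliced reads and did not enter. Ends 1 nt apart cannot both follow an AG. Among the 30 pairs at 7 nt or more, 8 distances were multiples of 3, which leave the reading frame as it is. The pair nearest above the read minimum was that of LAT, an adaptor of T-cell receptor signalling, with 54.8 reads, and the nearest below was in the pseudogene ANKRD18DP with 49.0. The longest distance was 99 nt in SMYD5, and the next pair, outside the limit, was that of RIT1 at 103 nt, with an inner share of 0.130%.

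The outer site had the higher count in all 69 pairs, and in each of the 6 libraries. That count includes reads of longer listed introns that span both sites. In the 44 nt pair of NDUFS7 nearly all outer reads were of this kind. Its outer site had 4 to 12 reads of its own per library, against 33 to 63 at the inner site. In 40 pairs no read was counted for the inner site in any library. In 17 pairs the inner share was above 0 and up to 1%, in 9 it was between 1 and 5%, in 2 between 5 and 10%, and in 1 pair, in GLOD4, it was 45.8%. Of the 40 pairs with no inner read, 5 had sites more than 2 nt apart. These had 366 to 19686 spliced reads over the 6 libraries, so the limit that a count of 0 allows (3 reads of the total) ran from 0.0152% in AP2M1, a clathrin adaptor subunit, to 0.820%. No such limit holds for 1 of the 5, PRKACB, with sites 8 nt apart. Its 36 to 115 outer reads per library were all, or nearly all, reads of a longer intron that spans both sites. Intervals and limits of this kind cover counting error only, since reads without molecular identifiers are not independent molecules. Of the 39 pairs at 1 or 2 nt, 35 had no inner read, and the pooled share was 0.00222%, or 9 inner reads beside 404961 outer reads. Over the 30 pairs at 7 to 99 nt the pooled share was 1.98%, and over the 19 pairs at 44 to 99 nt it was 3.20%. GLOD4 weighs heavily in both pooled values, and the median shares were 0.538% and 1.29%.

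The tables do not separate spliced reads whose ends differ by 1 or 2 nt well enough to read these shares as site choice. Of 21 listed introns that have a partner of the same length shifted by 1 or 2 nt at both ends, with at least 50 reads, 17 had the same spliced count as the partner in every library. In the others the difference was at most 0.857% of the reads. A read has its gap at a single place, so equal counts point to the same reads being counted for both. The shortest distance at which a close pair of either kind showed an inner share over 1% was 14 nt, in an alternative 5′ pair of GAPDH (559 inner reads, 1.61%). At 8 nt, NDUFS7 still had 6.17 inner reads per library on average. The inner shares of 0 at 1 and 2 nt are therefore counts of the tables, set no upper limit on the share, and use of a site within 2 nt of another was not measured here.

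**Figure D1:**
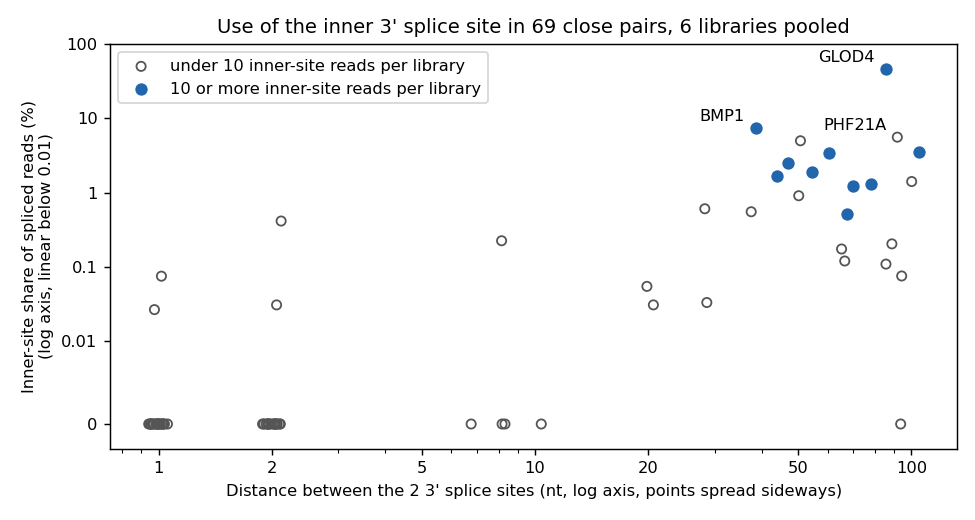
Inner share of spliced reads (%, log axis, linear below 0.01) against the distance between the 2 3′ splice sites (nt, log axis) for the 69 pairs, reads of the 6 libraries pooled. Each point is a pair, filled where the inner site had at least 10 reads per library; the 35 pairs with a share of 0 at 1 or 2 nt overlie each other, and GLOD4 at 45.8% stands above all others.

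Close and far pairs were set side by side over sites more than 2 nt apart. Far pairs are all listed pairs sharing the 5′ splice site at a longer distance, whatever lies between their ends. Their inner reads may end at any site short of the outer one, so their shares are not those of neighbouring 3′ splice sites. At least 10 reads per library at the less used site were counted in 10 of the 30 close 3′ pairs over 2 nt apart (33.3%). Net of reads of longer introns spanning both sites, 9 of these 10 remained. Such counts were found in 6246 of 9304 pairs sharing a 5′ splice site over 100 nt apart (67.1%). Close alternative 5′ pairs over 2 nt apart had them in 9 of 36 (25.0%). No inner read was found in 5 of the 30 close 3′ pairs (16.7%), 2.30% of the far pairs and 9 of the 36 close 5′ pairs (25.0%). With the pairs at 1 and 2 nt included, where site use was not measured, reads at both sites were counted in 14.5% of close 3′ pairs and 18.8% of close 5′ pairs, and no inner read in 58.0% and 41.7%. The median inner share was 1.29% over the 19 pairs at 44 to 99 nt, 6.77% over 65 pairs at 101 to 150 nt and 39.8% over 392 pairs at 151 to 300 nt. These shares describe which pairs the tables list and were not tested.

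GLOD4, which encodes a glyoxalase-domain protein, held the only pair whose sites were used about equally. Its introns, on the minus strand at chr17:778662-782165 (outer) and chr17:778745-782165 (inner), end 83 nt apart. The inner site had 300 and 341 reads in sh1 cells and 212 and 291 in sh2 cells, against 313 and 441 in Con_sh cells. The outer site had 330 and 465 reads in sh1 cells and 243 and 303 in sh2 cells, against 362 and 542 in Con_sh cells. The inner share averaged 45.0% ± 3.76 in sh1 cells and 47.8% ± 1.70 in sh2 cells, against 45.6% ± 1.07 in Con_sh cells (SD, n = 2 each). The groups overlapped, and the log2 change of inner against outer use was 0.04 (95% interval -0.40 to 0.49) for both shRNAs against control, with an adjusted p of 0.990 by edgeR. A further GLOD4 site 66 nt inside this inner site was hardly used, with 0 to 2 reads in each library.

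The 10 pairs with at least 10 reads counted at both sites were tested for a change of site choice, in a fit over all 13524 pairs of introns sharing a splice site. Net of reads of longer introns spanning both sites, the 44 nt pair of NDUFS7 fell below that minimum and 9 remained. None of the 10 was called for both shRNAs against control, for sh1 against control, for sh2 against control or for sh1 against sh2, by edgeR's quasi-likelihood test with Benjamini-Hochberg adjustment. The same test called 0 of the 13524 pairs in each of the 4 contrasts (0%), and 891 pairs (6.59%) had an unadjusted p under 0.05 for both shRNAs against control. For sh1 against control that number was 782 (5.78%), for sh2 against control 988 (7.31%) and for sh1 against sh2 976 (7.22%). DESeq2 called 55 of all pairs (0.407%) for both shRNAs, 51 (0.377%) for sh1, 54 (0.399%) for sh2 and 11 (0.142% of the 7756 with an adjusted p) between the shRNAs. Of the 10 close pairs DESeq2 called 0 in each contrast, and 0 had an unadjusted p under 0.05 in any contrast by either tool. By DESeq2 such a p was reached by 4.46% of all pairs for both shRNAs, 3.93% for sh1, 5.18% for sh2 and 4.63% between the shRNAs. The log2 change for both shRNAs was above 0 in 4 of the 10, with a median of -0.07, beside a median of 0.05 over all pairs tested. A p that misses the threshold does not show equal use, and the intervals below give the sizes that these libraries allow.

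**Figure D2:**
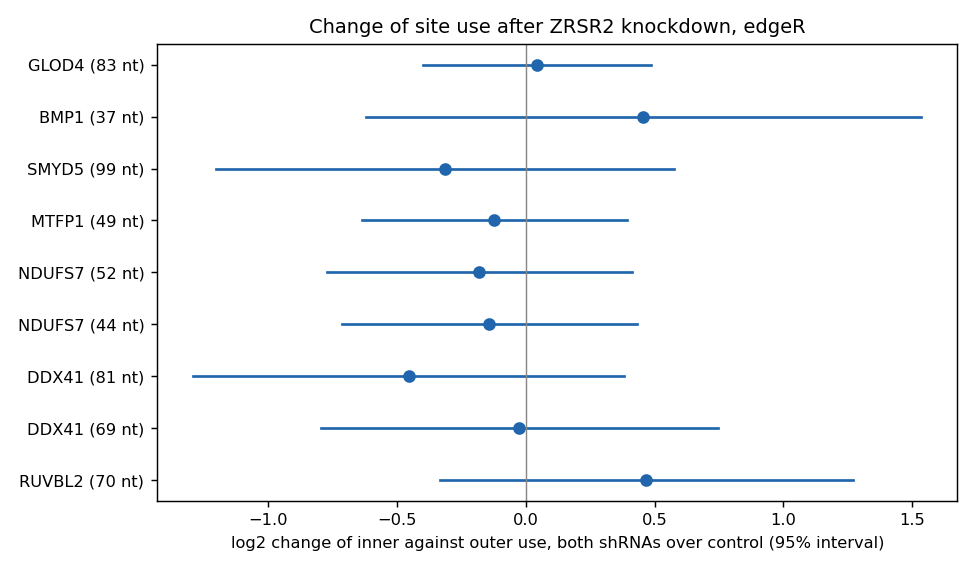
Log2 change of inner against outer use for both shRNAs over control, with 95% intervals from edgeR, for 9 of the 10 pairs with at least 10 reads counted at both sites, ordered by inner share. Every interval includes 0; the point of RUVBL2, at 0.47, is the farthest right and that of the 81 nt pair of DDX41, at -0.45, the farthest left.

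All 4 knockdown libraries lay above both controls in inner share in 1 of the 10 pairs and below them in 0. Over the 13524 tested pairs they lay above both controls in 9.24% and below them in 5.07%, so these counts are near the background.

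BMP1, a metalloprotease that cleaves procollagen and other matrix precursors, had the next highest inner share of the 10, at sites 37 nt apart. The share was 8.44% and 6.28% in sh1 cells and 8.84% and 7.80% in sh2 cells, against 8.54% and 2.99% in Con_sh cells. A single control library, replicate 2, was low, with 5 inner reads, and the other control lay within the knockdown range. The log2 change was 0.46 (95% interval -0.62 to 1.54) for both shRNAs, and -0.13 without that library.

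SMYD5, of the SET and MYND domain family, has sites 99 nt apart. Its inner share was 4.03% and 2.85% in sh1 cells and 4.19% and 2.29% in sh2 cells, against 2.95% and 5.04% in Con_sh cells. Here the highest and the lowest value came from a control and an sh2 library, and the log2 change was -0.31 (95% interval -1.20 to 0.58). MTFP1, a mitochondrial fission protein, has sites 49 nt apart. Its inner share was 2.25% and 2.58% in sh1 cells and 2.59% and 2.25% in sh2 cells, against 2.99% and 2.29% in Con_sh cells. This was the narrowest interval after GLOD4, with a log2 change of -0.12 (-0.64 to 0.39).

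DDX41, a DEAD-box helicase mutated in some myeloid neoplasms, held a pair in each of 2 introns. In the intron at chr5:177515259-177515684, on the minus strand with sites 81 nt apart, the inner share was 1.45% and 0.841% in sh1 cells and 1.46% and 0.877% in sh2 cells, against 1.22% and 1.90% in Con_sh cells. In the intron at chr5:177516448-177516724, with sites 69 nt apart, it was 1.61% and 0.838% in sh1 cells and 1.52% and 0.989% in sh2 cells, against 1.29% and 1.20% in Con_sh cells. In both introns the shRNA libraries of experiment 1 were higher than those of experiment 2, by more than sh1 and sh2 differed. The log2 changes were -0.45 (95% interval -1.29 to 0.38) and -0.02 (-0.79 to 0.74), and that of the 81 nt pair was -0.10 without Con_sh replicate 2. RUVBL2, an AAA+ ATPase of chromatin remodelling complexes, had 11 to 17 inner reads per library beside 1949 to 3439 outer reads at sites 70 nt apart. Its inner share was 0.726% and 0.525% in sh1 cells and 0.663% and 0.462% in sh2 cells, against 0.563% and 0.319% in Con_sh cells, with overlapping groups and a log2 change of 0.47 (-0.33 to 1.27). It was 0.05 without Con_sh replicate 2 and 0.88 without Con_sh replicate 1.

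NDUFS7, an iron-sulphur subunit of respiratory complex I, held 3 of the pairs, from a single 5′ splice site. The introns at chr19:1391051-1391066, chr19:1391051-1391110 and chr19:1391051-1391118 are 16, 60 and 68 nt long. A gap of 16 nt is far shorter than known human introns, and whether the aligner scored it as an intron or as a deletion is not given in the sources used here. Reads with that gap, 33 to 63 per library, and reads ending at the 60 nt intron's site were counted together. They were set against reads reaching the end of the 68 nt intron. Their joint share was 1.98% and 1.69% in sh1 cells and 1.97% and 1.46% in sh2 cells, against 2.46% and 1.58% in Con_sh cells. The groups overlapped, and the log2 change was -0.18 (95% interval -0.77 to 0.41). For reads with the gap alone, against the count of the 60 nt intron, the change was -0.14 (-0.72 to 0.43), from mostly the same reads. Only 4 to 12 reads per library ended at the 60 nt intron's own site. This test therefore also compares the gap with the 68 nt intron.

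**Figure D3:**
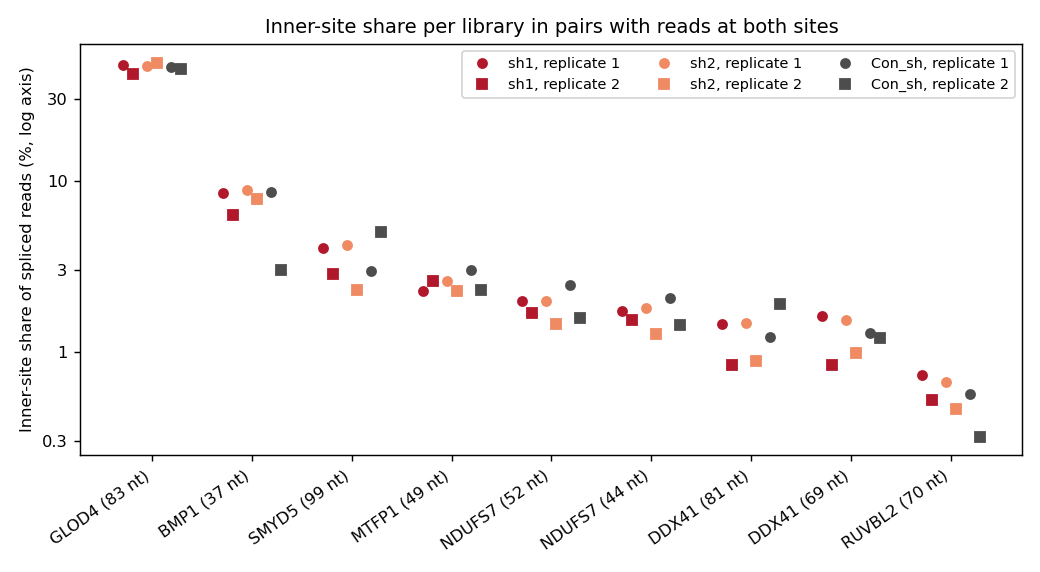
Inner share (%, log axis) in each library for 9 of the 10 pairs with at least 10 reads counted at both sites, ordered by the pooled share. Within each pair the libraries run sh1, sh2, Con_sh, with circles for replicate 1 and squares for replicate 2; the groups overlap in each pair drawn, and GLOD4, at 42.3% to 49.0%, stands above the others.

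Between the shRNAs, the log2 change of sh1 over sh2 was -0.17 (95% interval -0.68 to 0.35) in GLOD4, with an adjusted p of 0.892 by edgeR. RUVBL2 followed with 0.15 (-0.73 to 1.03), BMP1 with -0.19 (-1.32 to 0.94) and the 52 nt pair of NDUFS7 with 0.10 (-0.59 to 0.80).

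Lowering the minimum at the less used site to 1 read brought the testable close pairs to 16, of which 0 were called for both shRNAs against control, as were 0 of the 18803 pairs in that fit (0%). PIK3R2, a regulatory subunit of phosphoinositide 3-kinase with sites 49 nt apart, had 3 and 5 inner reads in sh1 cells and 16 and 5 in sh2 cells, against 1 and 3 in Con_sh cells. The inner share was 0.579% and 0.758% in sh1 cells and 1.79% and 0.836% in sh2 cells, against 0.308% and 0.475% in Con_sh cells. All knockdown values lay above both controls, and replicate 1 of sh2 was the highest. The log2 change was 1.16 (95% interval -0.27 to 2.59) with an adjusted p of 0.872 by edgeR. Against control it was 0.66 (-1.02 to 2.34) for sh1 and 1.66 (0.19 to 3.12) for sh2. The sh2 interval excludes 0, but its adjusted p by edgeR was 0.774.

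AGER, the receptor for advanced glycation end products, showed the same order at sites 52 nt apart. It had 5 and 5 inner reads in sh1 cells and 10 and 6 in sh2 cells, against 3 and 2 in Con_sh cells. The inner share was 4.20% and 5.26% in sh1 cells and 7.87% and 5.66% in sh2 cells, against 2.83% and 2.94% in Con_sh cells. The log2 change was 0.98 (-0.35 to 2.30) with an adjusted p of 0.892 by edgeR. PIK3R2 and AGER were among 3 of the 16 pairs that had all knockdown libraries above the controls, where 9.03% of all 18803 pairs did, and 0 of 16 had them below, where 4.99% of all pairs did. In PHF21A, a member of an LSD1 histone demethylase complex, the sites are 95 nt apart and the groups overlapped widely. Its inner share was 7.32% and 4.30% in sh1 cells and 6.18% and 1.84% in sh2 cells, against 11.5% and 3.82% in Con_sh cells.

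The tables also count reads lying across each intron's boundaries, which gives a retention percentage, the boundary reads over boundary reads plus 2 times the spliced reads. Boundary reads do not enter the site-use test. All 134 introns of the close pairs had enough reads for the retention test, fitted over 134078 introns. In that fit edgeR called 443 introns more retained (0.33%) and 28 less retained (0.0209%) in both shRNAs against control. Among the close pairs, 1 pair was called, that of DNA2, with both of its introns more retained, and 0 introns were called less retained. An unadjusted p under 0.05 was reached by 7 of the 134 introns (5.22%), beside 5951 of all introns (4.44%). For sh1 against control edgeR called 391 introns more retained (0.292%) and 14 less retained (0.0104%). For sh2 against control it called 358 more retained (0.267%) and 26 less retained (0.0194%). The introns of DNA2 were the only ones of the close pairs called in either of these contrasts. An unadjusted p under 0.05 was reached by 10 close-pair introns for sh1, where 4.09% of all introns reached it, and by 4 for sh2, where 4.5% did. Between sh1 and sh2, 33 introns were called more retained in sh1 (0.0246%) and 13 less (0.0097%), 0 of them from close pairs, of which 4 introns had an unadjusted p under 0.05 (3.83% of all introns). The log2 change of boundary against spliced reads was above 0 in 74 of the 134 (55.2%), with a median of 0.03. Over all introns it was above 0 in 55.8%, with a median of 0.09.

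DNA2 encodes a nuclease and helicase of DNA replication and repair. Its pair lies on the minus strand at chr10:68415106-68416706 (outer) and chr10:68415108-68416706 (inner), with ends 2 nt apart and identical counts at both ends. Retention was 61.9% and 30.9% in sh1 cells and 48.4% and 25.0% in sh2 cells, against 8.48% and 4.64% in Con_sh cells. The lowest knockdown value, 25.0%, lay well above the higher control value, and in each group replicate 1 was above replicate 2. Boundary reads at the 5′ end numbered 153 and 87 in sh1 cells and 144 and 72 in sh2 cells, against 26 and 28 in Con_sh cells. At the 3′ end they numbered 127 and 84 in sh1 cells and 137 and 81 in sh2 cells, against 17 and 9 in Con_sh cells. Spliced reads moved the other way, with 86 and 191 in sh1 cells and 150 and 230 in sh2 cells, against 232 and 380 in Con_sh cells.

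The log2 change of boundary against spliced reads in DNA2 was 3.35 ± 0.495 (SE; 95% interval 2.38 to 4.32) for both shRNAs, with an adjusted p of 1.81e-08 by edgeR. It was 3.65 for sh1 (adjusted p of 2.07e-07 by edgeR) and 3.05 for sh2 (5.16e-05), and sh1 over sh2 gave 0.59 (-0.48 to 1.67). Group means were 46.4% ± 21.9 in sh1 cells and 36.7% ± 16.6 in sh2 cells, against 6.56% ± 2.71 in Con_sh cells (SD, n = 2 each). Within experiment 1 the values were 61.9% and 48.4% in knockdown cells, against 8.48% in Con_sh cells, and within experiment 2 they were 30.9% and 25.0%, against 4.64%. A further listed intron, chr10:68415108-68416708, has the length of the outer intron, 1601 nt, is shifted by 2 nt at both ends and holds the same spliced counts. It was called as well, with a log2 change of 3.34, and repeats the same reads. Of the 19 DNA2 introns outside the pair, this shifted listing was the only one called, and their median retention was 1.50% in knockdown cells and 1.63% in Con_sh cells.

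**Figure D4:**
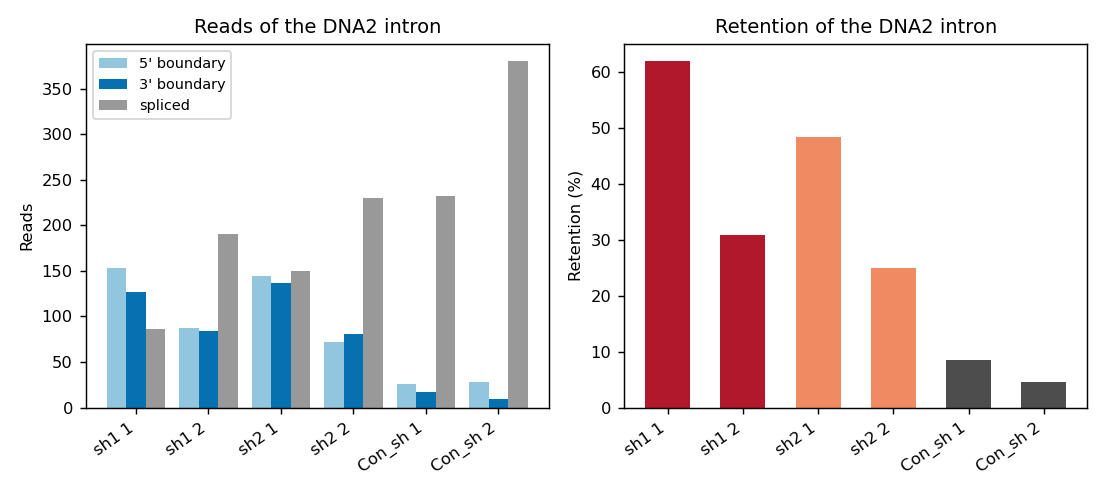
Reads at the 5′ boundary, at the 3′ boundary and spliced reads of the outer DNA2 intron (left) and its retention in percent (right) in each of the 6 libraries, ordered sh1, sh2, Con_sh. Retention is 25.0% to 61.9% in the 4 knockdown libraries, against 8.48% and 4.64% in the controls, with more boundary reads and fewer spliced reads in each knockdown library.

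The introns with the next smallest p were not called. In RNF123, a ubiquitin ligase, the inner intron's retention was 1.75% and 2.38% in sh1 cells and 1.65% and 3.62% in sh2 cells, against 6.20% and 4.57% in Con_sh cells. All knockdown values lay below both controls, with a log2 change of -1.30 (95% interval -2.26 to -0.34) and an adjusted p of 0.688 by edgeR. In GLOD4 the outer intron's retention was 16.5% and 10.2% in sh1 cells and 15.6% and 13.4% in sh2 cells, against 8.12% and 5.74% in Con_sh cells. All knockdown values lay above both controls, with a log2 change of 1.12 ± 0.449 (SE) and an adjusted p of 0.794 by edgeR. This percentage leaves out the reads spliced to the inner site. Through the inner intron, retention was 3.74% and 2.72% in sh1 cells and 3.60% and 2.38% in sh2 cells. The Con_sh values there were 1.96% and 1.21%. The other GLOD4 introns had a median log2 change of 0.66 over 11 introns, with 0 called and 4 at an unadjusted p under 0.05. The inner share of GLOD4 in the same libraries, given above, overlapped between the groups.

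SLC71A2 had a log2 change of 1.03 in its outer intron and SRRM1, a splicing coactivator, 1.09 in its inner intron. The tetraspanin CD9 had 1.89, from at most 5 reads at a 3′ boundary. On the other side, SLC12A2, a sodium, potassium and chloride cotransporter, had 0.787% and 0.513% retention of its outer intron in sh1 cells and 0% and 0.461% in sh2 cells, against 2.49% and 1.24% in Con_sh cells, from at most 4 reads at the 3′ boundary. DLST, a subunit of the oxoglutarate dehydrogenase complex, had a log2 change of -0.78. YTHDF3, a reader of methylated adenosine in RNA, had 0.62 in its inner intron, GTPBP8 had 0.90 in its outer intron, and GRK6, a kinase of G-protein-coupled receptors, had 0.51 in its outer intron. All of these had an adjusted p of 1 by edgeR. Over the 69 pairs, the outer intron's retention was above both controls in all knockdown libraries in 7 pairs and below them in 6, where 7.28% and 4.11% of all tested introns did so.

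The 2 ends of a pair gave different retention where boundary reads differed between them. More reads lay across the outer than the inner 3′ boundary in 29 of the 39 pairs at 1 or 2 nt, in 8 of 9 at 7 to 30 nt and in 16 of 21 at 37 to 99 nt. The median excess, summed over the 6 libraries, was only 3 reads at 1 or 2 nt. It was 15 reads at 7 to 30 nt and 92 at 37 to 99 nt. A read spliced to the inner site runs on across the outer boundary, and whether such reads count as boundary reads is not given in the sources used here. In BMP1 the excess was 61 to 122 reads per library beside 5 to 29 inner reads. In the 83 nt pair of GLOD4 it was 37 to 81 beside 212 to 441. At 7 to 30 nt, 3 pairs had an excess and no inner read. The source of the excess was not tested. Retention through the outer intron was at least 2 times that through the inner intron in 5 of the 39, 1 of the 9 and 6 of the 21 pairs. In 1 of these, CHD6, a chromatin helicase, the inner intron was at 0 in all libraries and no ratio can be given. Among pairs with inner retention above 0 the largest ratio was 44.6, in RPL14, a protein of the large ribosomal subunit, whose ends lie 2 nt apart. There the outer 3′ boundary had 2511 and 2845 reads in sh1 cells and 3183 and 2881 in sh2 cells, against 2445 and 3017 in Con_sh cells. The inner 3′ boundary had 22 and 30 reads in sh1 cells and 41 and 47 in sh2 cells, against 28 and 54 in Con_sh cells.

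Retention of RPL14 was accordingly 3.94% to 4.04% by the outer end in the knockdown libraries, against 3.94% and 3.98% in Con_sh cells. By the inner end it was 0.0657% to 0.0895% in the knockdown libraries, against 0.0799% and 0.127% in Con_sh cells. The shared 5′ boundary of RPL14 held 13 to 40 reads per library, a retention of 0.0369% to 0.108% by that boundary alone. The value by the outer end therefore rests almost wholly on reads at the outer 3′ boundary. The group made no difference that passed the test at either end, with log2 changes of 0.01 (outer) and -0.32 (inner). Ribosomal protein genes have many near-identical processed pseudogenes, so reads of RPL14 may be shared with them. BMP1 had a ratio of 18.7: its outer 3′ boundary held 83 and 62 reads in sh1 cells and 122 and 61 in sh2 cells, against 79 and 66 in Con_sh cells. Its inner boundary held 0 reads in each knockdown library, against 0 and 1 in Con_sh cells. The 5′ boundary of BMP1 held 1 to 8 reads per library. CAPZA2, a subunit of the actin capping protein with ends 20 nt apart, had a ratio of 5.14.

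**Figure D5:**
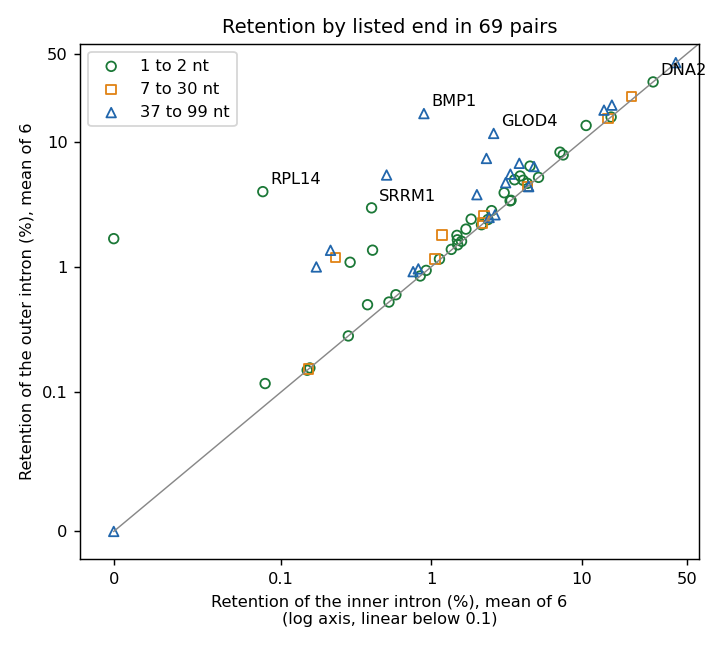
Retention of the outer intron against that of the inner intron of each of the 69 pairs (%, means of the 6 libraries, log axes, linear below 0.1), by distance between the ends. The line marks equal values; RPL14 and BMP1 lie far above it, and DNA2 lies on it.

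Few of the close pairs fell in genes of the lists drawn up for ZRSR2 and splicing. None of 43 genes listed from memory as having U12-type introns held a pair. The introns of the pairs, that of DNA2 included, were not classed by sequence, so whether any is of the U12 type was not examined. Of 28 listed genes with cryptic 3′ splice sites described in cells mutant for SF3B1, a branch point recognition protein, only DLST did, at 2 nt and with no inner read among 4572 reads. Of 50 splicing factor genes and of 19 genes with described tandem acceptors, SRRM1 alone did, also at 2 nt and with no inner read among 6033. Of 33 leukaemia genes MYC and SETD2 did, a transcription factor and a histone H3 methyltransferase, both at 2 nt. MYC had 11505 spliced reads and SETD2 2192, with 0 counted for the inner site in either. All 4 pairs are too close for the tables to separate their sites, and none was tested for site use.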

How the data were processed

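For each library the authors deposited a table of the same introns. Per the file headers it holds counts, not normalised, of reads at both intron boundaries and of spliced reads, and a covered fraction of the intron's bases. The deposited percent (MSI) was recomputed from the counts with a largest deviation of 2.8e-14. The aligner, counter and annotation are not given in the sources used here. Submitters' processing notes name hg19, but the positions behaved as GRCh38: in RefSeq promoter sequences of GRCh38.p14, 1966 of 2013 5′ ends (97.7%) read GT and 775 of 788 3′ ends (98.4%) read AG, against 0 of 2000 and 0 of 785 after a shift by 1 nt. Coordinates are as in the tables, with starts counted from 1. Gene names came from RefSeq and covered 94.6% of introns. Reads of overlapping and antisense genes cannot be told apart. CPM of spliced reads were computed here over introns that do not overlap. No genome sequence was used. The values of 1 of the 10 pairs tested for site use are not reported here.

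Site use (inner and outer reads) and retention (boundary and spliced reads) were each fitted as a pair of counts per library, with the library as a factor, in edgeR 4.0.16 (quasi-likelihood, Benjamini-Hochberg, threshold 0.05) in R 4.3.3, over all 6 libraries. Minima were 10 reads at the less used site for site use and 20 boundary plus spliced reads for retention. DESeq2 1.42.0, TMM scaling, other minima, removal of reads of spanning introns, a replicate block and leaving out each library were alternatives. Both fits were tested on simulated data. The labels do not say that libraries came from separate cultures, so p-values measure the spread between these samples, which may be technical. No 2 libraries were copies of each other (chi-square per degree of freedom 15.6 to 31.5 between replicates). The pairs and gene lists were chosen with earlier results of these data known, and the check of ends shifted by 1 or 2 nt was added after seeing the tables. Genes were named by the smallest p in each test, the most reads among pairs with an inner share of 20 to 80%, and the gene lists; others, including those that mark extremes (RPL14, CHD6, CAPZA2, AP2M1, PHF21A and pairs with few inner reads), were chosen after their values were seen.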

Additional observations from a re-analysis of the deposited data

How the results depend on the processing

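The counts of close pairs called, 0 for site use in each of the 4 contrasts and 1 for retention, were the same under every alternative run. Site use was recomputed with DESeq2, TMM, minima of 1 and 50 reads (16 and 2 close pairs tested), removal of spanning introns (9 tested), the replicate block and leaving out each library. For both shRNAs against control, the lowest adjusted p of the 10 pairs was 0.637 by edgeR, with the replicate block. In that contrast, of 111 log2 changes of these 10 pairs under an alternative, 101 kept their direction and 10 reversed, each on leaving out a library. Over the libraries left out, the 7 pairs concerned ranged from -0.0327 to 0.122 in GLOD4 (negative without sh1 replicate 1 and, at -0.000499, without Con_sh replicate 2) and from -0.391 to 0.150 in the 44 nt pair of NDUFS7. They ranged from -0.481 to 0.171 in its 52 nt pair, from -0.315 to 0.0823 in MTFP1, from -0.65 to 0.145 in SMYD5 and from -0.127 to 1.45 in BMP1. The 69 nt pair of DDX41 ranged from -0.283 to 0.193. NDUFS7, MTFP1 and DDX41 turned positive without Con_sh replicate 1, SMYD5 turned positive and BMP1 negative without Con_sh replicate 2, and DDX41 also turned positive without sh1 replicate 2 (0.193) and without sh2 replicate 2 (0.120). Without reversing, RUVBL2 ranged from 0.0529 (without Con_sh replicate 2) to 0.875 (without Con_sh replicate 1), and the 81 nt pair of DDX41 from -0.742 (without Con_sh replicate 1) to -0.0952 (without Con_sh replicate 2). The cause was not tested. DNA2 ranged from 2.89 to 3.82 over 9 alternatives, with a highest adjusted p of 0.00658 by edgeR.

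The labels do not say whether the experiment number marks a shared batch, and it was not taken to pair the libraries, since 1 of the 3 correlations was under 0.1. Differences between replicates correlated at 0.162 (sh1 and sh2), 0.0425 (sh1 and Con_sh) and 0.213 (sh2 and Con_sh) over 13524 pairs. With the replicate block 0 close pairs were called for site use in each contrast and 1 for retention, and DNA2 gave 3.36. Of the 30 close pairs over 2 nt apart, 20 had under 10 inner reads per library, too few for the test.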
